A study of Mus musculus with 32 samples.

Results

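The 45 genes described here are interferon-stimulated genes, listed by gene symbol, and all 45 were found among the 42524 genes of the read count table. Interferon is known to switch them on, but the list was chosen with earlier results of these data known. Counts of members beside those of all genes are therefore a description. They were followed gene by gene and as a mean level in the spinal cord of mice that carry a mutant human SOD1 transgene, a model of amyotrophic lateral sclerosis (ALS), and of their wild-type littermates. RNA sequencing was done on 32 mice in 8 groups of 4: WT and G93A mice, untreated or treated with the nitrone OKN-007 in the drinking water, killed at 90 or at 155 days. The G93A mice are the line B6-Tg(SOD1-G93A)1Gur/J, bred on the C57BL/6J background, and the WT mice are littermates without the transgene. The study's methods say that experimental mice were predominantly female, and that OKN-007 was given at more than one dose. The study's design places its cohorts killed at 95 or 155 days at the higher dose, for which the methods name females alone. No source names the dose of the sequenced mice themselves, so none is assigned. Of the study's cohorts killed at 155 days, some were treated from before disease onset and another from 95 days of age. Which start applies to the sequenced mice is not stated either. The labels give the earlier time as 90 days whereas the methods place that group at 95 days of age, and the label is used below. The transgene is human and is not analysed here, and Sod1 of the mouse does not check the genotype labels.

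Interferons are secreted when a cell senses foreign or misplaced nucleic acid. Type I interferons bind the Ifnar1 and Ifnar2 receptor, whose kinases Jak1 and Tyk2 phosphorylate STAT proteins such as Stat2, and these join Irf9 in a complex that binds interferon response elements in gene promoters. The genes switched on in this way include sensors that detect more nucleic acid, factors that amplify the signal, and effectors that stop viral replication. In the central nervous system, microglia, astrocytes and neurons can all make this response, and microglia with high levels of such genes are known from aged and diseased tissue.

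The letters that the complex with Stat2 and Irf9 is known to bind were looked for in the 250 bases upstream of each start, in RefSeq's promoter windows of the mouse build GRCm38.p6. The search was for 2 copies of GAAA separated by 2 bases, on either strand (TTTC on the other). Of the 45 members, 34 had a window by symbol and 16 of these (47.1%) held the repeat, against 936 of 27025 genes in all (3.46%). The letters TTCNNNGAA, the gamma-activated motif, stood in 6 members (17.6%) against 8.13% of all genes. Bst2, Gbp7, Igtp and Oas1a held both, and only in Bst2 did the 2 kinds of match share bases. In 8 members the repeat occurred 2 or more times. Of these 8, the 6 with the largest log2 fold changes at 155 days are shown, as the members with repeated matches that differed most, each 5′ to 3′ on its own strand, ending at the base before the start, with the repeat in capitals.
Isg15, chr4:156200819-156201068, minus strand: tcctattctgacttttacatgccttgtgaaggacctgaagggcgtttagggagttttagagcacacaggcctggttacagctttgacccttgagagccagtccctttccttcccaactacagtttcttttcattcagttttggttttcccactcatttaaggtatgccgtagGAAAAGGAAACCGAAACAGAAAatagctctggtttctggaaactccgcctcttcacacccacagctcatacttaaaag
Bst2, chr8:71537473-71537722, minus strand: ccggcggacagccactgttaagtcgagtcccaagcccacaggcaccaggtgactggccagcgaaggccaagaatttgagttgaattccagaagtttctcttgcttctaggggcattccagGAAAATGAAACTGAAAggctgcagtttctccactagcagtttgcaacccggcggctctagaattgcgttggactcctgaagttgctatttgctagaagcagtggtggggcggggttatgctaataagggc
Oas1a, chr5:120907526-120907775, minus strand: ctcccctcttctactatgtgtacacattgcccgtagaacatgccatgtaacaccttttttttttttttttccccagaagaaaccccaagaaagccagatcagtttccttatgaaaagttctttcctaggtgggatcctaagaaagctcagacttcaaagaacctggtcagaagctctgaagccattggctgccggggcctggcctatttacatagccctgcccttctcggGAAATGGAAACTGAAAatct
Ifit3, chr19:34583279-34583528, plus strand: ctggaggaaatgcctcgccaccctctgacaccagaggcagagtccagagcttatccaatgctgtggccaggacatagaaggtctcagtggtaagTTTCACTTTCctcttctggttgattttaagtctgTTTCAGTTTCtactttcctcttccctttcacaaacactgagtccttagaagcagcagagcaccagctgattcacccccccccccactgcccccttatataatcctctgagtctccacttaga
Ifit1, chr19:34640639-34640888, plus strand: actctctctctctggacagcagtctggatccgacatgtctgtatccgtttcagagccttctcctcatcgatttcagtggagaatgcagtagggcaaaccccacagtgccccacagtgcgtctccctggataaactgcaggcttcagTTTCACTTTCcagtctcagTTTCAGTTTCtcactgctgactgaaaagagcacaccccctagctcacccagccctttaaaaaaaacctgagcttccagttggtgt
Gbp3, chr3:142559794-142560043, plus strand: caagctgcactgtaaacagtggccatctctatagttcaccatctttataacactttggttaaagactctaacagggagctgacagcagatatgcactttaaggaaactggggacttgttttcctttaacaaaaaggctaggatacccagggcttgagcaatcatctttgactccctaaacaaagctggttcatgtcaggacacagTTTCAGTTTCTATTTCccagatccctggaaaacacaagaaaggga
In Isg15 3 matches overlapped into a single run, and in Bst2, Oas1a and Gbp3 2 matches did so. Counted from its first base, the nearest match lay between 14 bases (Oas1a) and 222 bases (Stat2) before the start. A match is a run of letters and not a measured binding site. The 11 members with no window were Dhx58, Ifi27l2a, Ly6e, Mx1, Mx2, Oas2, Parp14, Parp9, Rtp4, Usp18 and Zbp1.

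The table holds raw read counts per gene, with totals from 19701722 to 30138257 per mouse (median 26658755). Levels are given as CPM, counts scaled to library size with trimmed mean (TMM) factors, and 3 counts in the smallest library correspond to 0.152 CPM. Differences are log2 fold changes from edgeR's quasi-likelihood test with their standard errors (SE), fitted over all genes of an age, and a gene was called at a Benjamini-Hochberg adjusted p under 0.05 over all genes tested. The p-values weigh a difference against the spread between these mice, as estimated in the fit. The spinal cord labels were checked on marker lists: the summed level of 5 oligodendrocyte genes was 19200 to 51900 CPM over the mice, and that of 6 neuronal genes 2350 to 7380 CPM. In G93A mice at 155 days, 11 of 11 microglial markers and 5 of 6 astrocyte markers were higher and 6 of 6 neuronal markers lower than in WT mice, both untreated, and 7 of 12 caudal Hox genes, which mark the position of a piece of cord along its length, were lower. In that comparison 21.3% of all genes tested were higher and 18.2% lower. Bulk RNA cannot tell more cells of a type from more RNA per cell.

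The mean level of the 45 members, as the mean of log2(CPM + 1), separated the G93A mice at 155 days from every other group. It was 2.57 ± 0.086 (SD, n = 4) in untreated WT mice and 3.74 ± 0.36 in untreated G93A mice, a difference of 1.17. In mice given OKN-007 it was 2.57 ± 0.033 in WT and 3.71 ± 0.132 in G93A, a difference of 1.14. The single G93A mice at 155 days lay between 3.44 and 4.18, and the single WT mice of that age between 2.49 and 2.66, so the genotypes did not overlap. At 90 days the untreated groups stood at 2.66 ± 0.089 in WT and 2.68 ± 0.077 in G93A, a difference of 0.018, which is less than either SD. The treated groups of that age stood at 2.64 ± 0.118 in WT and 2.84 ± 0.31 in G93A, where 1 mouse reached 3.25.

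**Figure D1:**
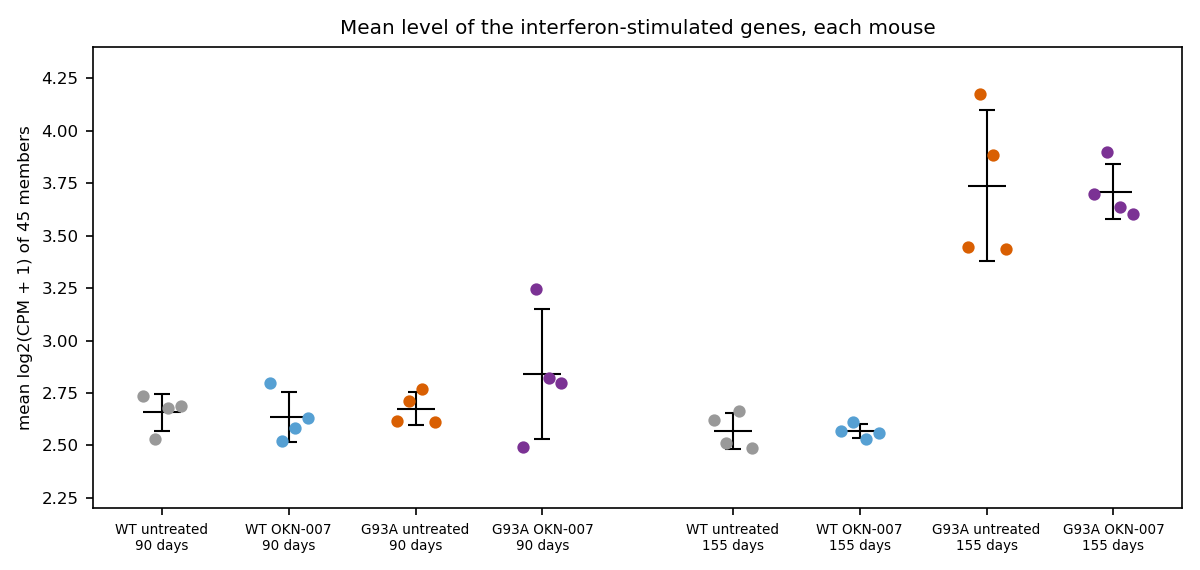
The vertical axis is the mean of log2(CPM + 1) over the 45 members and the horizontal axis the 8 groups. Each point is 1 mouse, the long bar the group mean and the whiskers its SD. The 8 G93A mice at 155 days sit between 3.44 and 4.18, above all other mice, and the highest mouse at 90 days is a treated G93A mouse at 3.25.

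Untreated G93A mice were compared with untreated WT mice at 155 days to ask what differs with the transgene at the later age. Of the 45 members, 42 were higher in G93A, 2 were lower and 1 was not called by edgeR's quasi-likelihood test, where 21.3% of all 18675 genes tested were higher and 18.2% lower. The median log2 fold change of the members was 1.47, against 2e-04 for all genes tested, and in 36 members it was 1 or more. In 42 members all 4 G93A mice stood above all 4 WT mice, an arrangement found in 15.6% of all genes tested. In 2 they stood below, and for that direction the share of all genes was not counted. The largest differences were in Mx1, Zbp1, Ifi27l2a and Bst2, with log2 fold changes of 3.68, 3.63, 3.18 and 3.06. The members lower in G93A were Adar and Cmpk2.

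**Figure D2:**
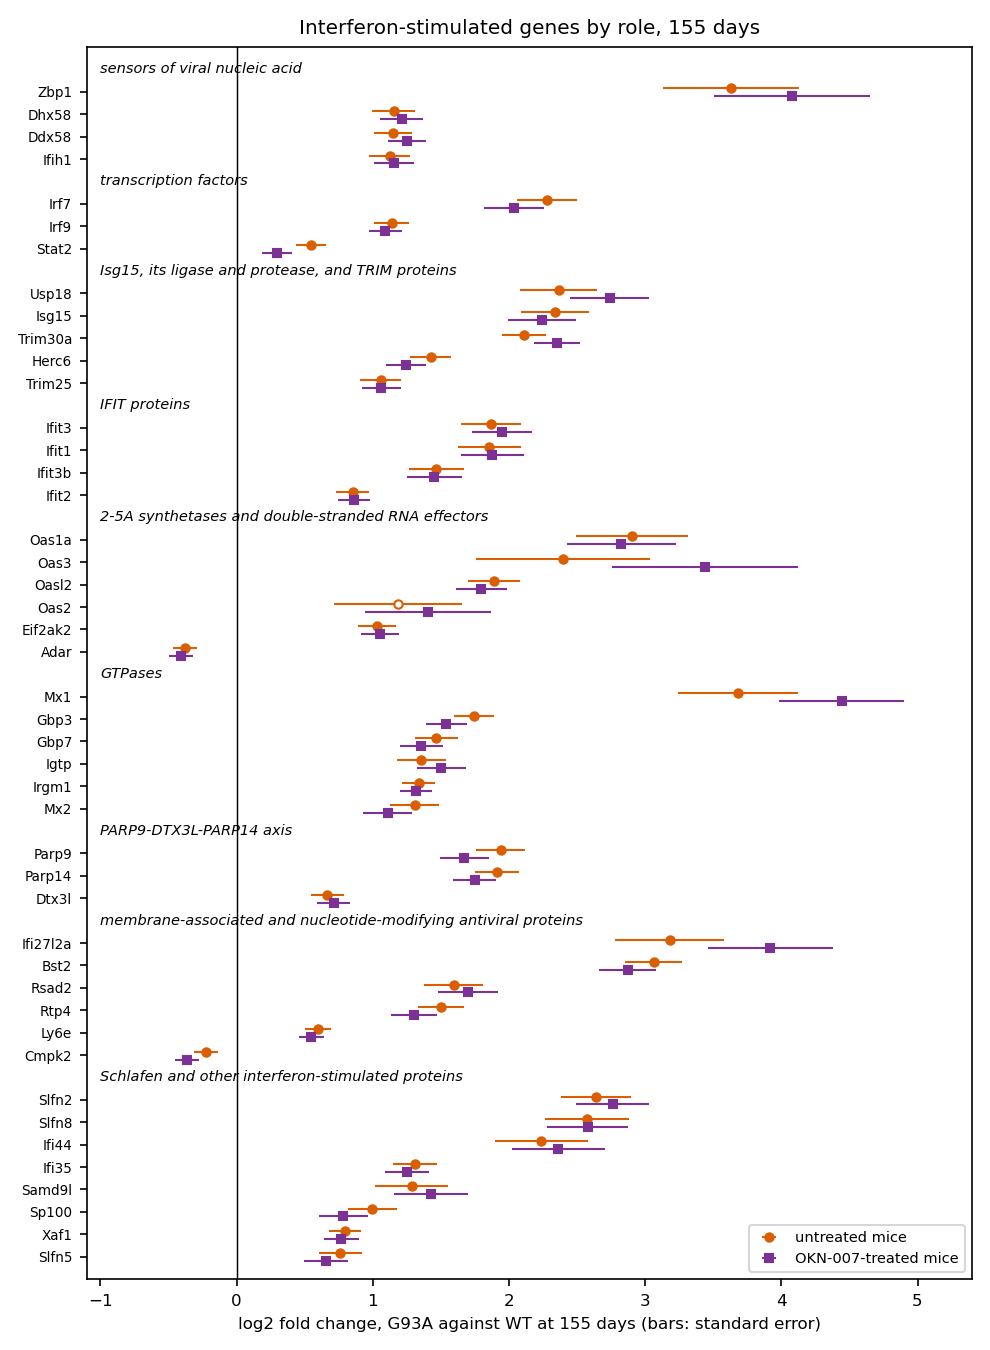
The horizontal axis is the log2 fold change of G93A against WT mice at 155 days for each member, with its standard error as a bar, and members are grouped by role down the vertical axis. Circles are untreated mice and squares mice given OKN-007, filled where the adjusted p was under 0.05. All but Adar and Cmpk2 lie right of 0, and Oas2 in untreated mice is the open symbol.

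All 4 sensors of viral nucleic acid rose. Zbp1, which binds left-handed double-stranded RNA and DNA and can start cell death, measured 0.0761, 0.639, 0.155 and 0.0654 CPM in the 4 untreated WT mice. In the 4 untreated G93A mice Zbp1 measured 1.57, 4.07, 3.62 and 1.69 CPM. The groups did not overlap, and the second WT mouse stood well above the other WT mice, whose reads numbered 2 to 4. Zbp1 was 12.4-fold higher in G93A (log2 3.63, SE 0.5, adjusted p = 1.47e-05), and without that mouse the log2 fold change was 4.81. Ddx58 encodes RIG-I, the cytosolic sensor of short double-stranded RNA. Its levels were 7.76, 6.6, 6.61 and 6.9 CPM in WT and 12.8, 20, 15.7 and 11.7 CPM in G93A, again without overlap, a 2.22-fold difference (log2 1.15, SE 0.14, adjusted p = 4.18e-06). Ifih1 (MDA5, the sensor of long double-stranded RNA) and Dhx58 (LGP2, its cofactor) differed by nearly the same factor, 2.18-fold and 2.22-fold.

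The 3 transcription factors that carry the interferon signal rose by unequal amounts. Irf7, the factor that drives the second wave of interferon production, measured 2.97, 4.39, 3.11 and 3.53 CPM in WT and 12.3, 25.1, 17.2 and 11.5 CPM in G93A mice. The groups were far apart, and the fitted difference was 4.85-fold (log2 2.28, SE 0.22, adjusted p = 1.7e-07). Irf9 was 2.2-fold higher. Stat2 measured 21.6, 18.6, 21.8 and 25 CPM in WT and 25.5, 38.9, 33.6 and 25.7 CPM in G93A mice. The lowest G93A mouse was barely above the highest WT mouse, and the 1.46-fold difference (log2 0.55, SE 0.11, adjusted p = 0.000829) was the smallest among the members that rose.

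Isg15, the ubiquitin-like protein that is joined to other proteins during an interferon response, and all 4 genes listed beside it rose. It measured 1.37, 1.06, 1.36 and 1.11 CPM in WT and 4.23, 7.9, 8 and 4.1 CPM in G93A mice. The groups were well apart, at 5.06-fold (log2 2.34, SE 0.25, adjusted p = 5.5e-07). Usp18, the protease that removes Isg15 and damps the type I receptor, measured 1.48, 0.937, 1.55 and 1.21 CPM in WT and 5.27, 9.22, 8 and 3.61 CPM in G93A mice. No G93A mouse overlapped with WT, a 5.15-fold difference (log2 2.36, SE 0.28, adjusted p = 1.92e-06). Herc6, the ligase that attaches Isg15 in mice, rose 2.68-fold. Trim25, which ubiquitinates RIG-I, measured 10.6, 7.71, 11.4 and 9.48 CPM in WT and 14.7, 24.6, 22.1 and 17.8 CPM in G93A mice. These groups were closer but separate, with a 2.08-fold difference (log2 1.06, SE 0.15, adjusted p = 1.29e-05). Trim30a, a mouse TRIM protein that restrains NF-κB signalling, rose 4.32-fold. Over part of its length the Isg15 transcript matches the annotated gene AC151275.1, so reads of the 2 may be shared.

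The 4 IFIT genes, whose proteins bind foreign RNA and block its translation, all rose. Ifit3 had the largest difference and the highest level of the 4, with 20, 19.7, 19.7 and 14.2 CPM in WT and 44.7, 108, 64.5 and 44 CPM in G93A mice. Mouse 10 stood far above the other G93A mice, and the lowest G93A mouse was still well above the highest WT mouse. The difference was 3.65-fold (log2 1.87, SE 0.22, adjusted p = 1.56e-06). Ifit1 rose 3.62-fold, Ifit3b 2.76-fold and Ifit2 1.81-fold. The transcripts of Ifit3 and Ifit3b are nearly identical over 97.4% of the Ifit3 sequence, so the split of reads between them is uncertain.

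The 2-5A synthetases, which make the messenger that activates RNase L, and the other effectors triggered by double-stranded RNA did not move as one. Oas1a measured 0.837, 0.213, 0.311 and 0.327 CPM in WT and 2.32, 4.9, 3.45 and 1.82 CPM in G93A mice. The groups did not overlap, and the difference was 7.49-fold (log2 2.9, SE 0.41, adjusted p = 2.02e-05). All of the Oas1a transcript has a near-identical copy in Oas1g, so its count is uncertain. Oasl2 rose 3.71-fold and Eif2ak2, the kinase PKR that stops translation, 2.04-fold. Oas3 rose 5.27-fold (log2 2.4, SE 0.64, adjusted p = 0.00554), but from 1 or 2 reads in each WT mouse. Oas2 was the single member that was not called. It measured 0.418, 0.17, 0.544 and 0.621 CPM in WT and 0.561, 2.14, 0.691 and 0.618 CPM in G93A mice. The groups overlapped, and the log2 fold change of 1.19 (SE 0.47, adjusted p = 0.0542) was 0.55 without mouse 10.

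Adar, the enzyme that edits adenosine to inosine in double-stranded RNA and so keeps the cell's own RNA from being sensed, was lower in G93A mice. It measured 177, 153, 177 and 172 CPM in WT and 126, 126, 107 and 145 CPM in G93A mice. All G93A mice were below all WT mice, a fold of 0.769 (log2 -0.38, SE 0.088, adjusted p = 0.00216). Adar has a constitutive as well as an interferon-driven promoter, and the counts here join the products of both. Per kilobase of exon it had the highest level of all members in WT mice, 20.9 ± 1.42 CPM per kilobase (SD, n = 4), and it stood at rank 5 in G93A mice. Part of the gene is overlapped on the other strand by Chrnb2, a neuronal receptor subunit, and whether the counting used strand is not stated.

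All 6 GTPases rose. Mx1, a dynamin-like GTPase that blocks viral polymerases in the nucleus and that carries an inactivating deletion in common laboratory strains, had the largest fold change of all members. Its levels were 0.418, 0.128, 0.311 and 0.229 CPM in WT and 1.91, 6.01, 4.14 and 1.89 CPM in G93A mice. The lowest G93A mouse stood far above the highest WT mouse, a 12.9-fold difference (log2 3.68, SE 0.44, adjusted p = 2.34e-06). Gbp3, a guanylate-binding protein active against intracellular pathogens, had the highest level of the group, with 15.4, 15.8, 15.5 and 11.9 CPM in WT and 36.8, 69.1, 46.2 and 38.4 CPM in G93A mice. The difference was 3.35-fold without overlap (log2 1.74, SE 0.15, adjusted p = 2.59e-08). Mx2, Gbp7 and the immunity-related GTPases Igtp and Irgm1 rose between 2.48-fold and 2.76-fold. Mx2 shares 34% of its transcript with Mx1 at near identity.

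Parp9, Dtx3l and Parp14, which act together in ADP-ribosylation and ubiquitination in the interferon response, all rose. Parp9 measured 3.31, 2.85, 3.77 and 2.55 CPM in WT and 8.31, 15.2, 14.2 and 8.85 CPM in G93A mice. The difference of 3.84-fold without overlap (log2 1.94, SE 0.18, adjusted p = 8.15e-08) was close to that of Parp14, 3.76-fold. Dtx3l, the partner of Parp9, measured 8.25, 6.05, 8.63 and 7.65 CPM in WT and 10.1, 14.7, 11.3 and 11.1 CPM in G93A mice. Its difference was smaller, 1.59-fold (log2 0.67, SE 0.12, adjusted p = 0.000276), and the genes overlap on opposite strands. Which share of reads in the overlap belongs to each cannot be told without the strand setting.

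Among the membrane-associated and nucleotide-modifying members, 5 rose and Cmpk2 fell. Ifi27l2a, a small membrane protein of uncertain function, measured 0.342, 0.341, 0.428 and 0.196 CPM in WT and 2.66, 4.9, 2.76 and 1.27 CPM in G93A mice. The groups did not overlap, and the difference was 9.07-fold (log2 3.18, SE 0.4, adjusted p = 4.12e-06). Bst2 (tetherin), which holds budding viruses on the cell surface, measured 2.28, 2.6, 2.25 and 2.09 CPM in WT and 13.3, 25.9, 23.4 and 12.4 CPM in G93A mice. It was 8.36-fold higher (log2 3.06, SE 0.21) with the smallest adjusted p of all members (1.6e-09, edgeR). Ly6e, a lipid-anchored surface protein that restrains coronavirus entry, had the highest level of the group among those that rose. It measured 39.9, 52.4, 43.6 and 40.9 CPM in WT and 63.5, 70.5, 71.8 and 54 CPM in G93A mice, a 1.51-fold difference (log2 0.6, SE 0.094, adjusted p = 5.86e-05), with the highest WT mouse just below the lowest G93A mouse. Rsad2 (viperin), which makes a chain-terminating nucleotide, rose 3.02-fold and Rtp4, a chaperone of G protein-coupled receptors, 2.84-fold.

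Cmpk2, a mitochondrial nucleotide kinase whose gene lies beside Rsad2, went the other way from its neighbour. It measured 38.1, 33.8, 35.1 and 33.2 CPM in WT and 28.7, 27.9, 29.2 and 30.1 CPM in G93A mice. All G93A mice stood below all WT mice, but the difference was small, a fold of 0.855 (log2 -0.23, SE 0.087, adjusted p = 0.0475). That call was lost in 11 of 15 alternative analyses, where the log2 fold change ranged from -0.25 to -0.19. Per kilobase of exon the level of Cmpk2 was 8.42 ± 0.523 CPM in WT mice (SD, n = 4), above that of Rsad2, 0.685 ± 0.18.

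The 8 Schlafen and other interferon-stimulated members all rose. Slfn2, which keeps T cells and monocytes quiescent, measured 1.9, 3.07, 2.33 and 1.47 CPM in WT and 10.9, 16.9, 17.2 and 7.81 CPM in G93A mice. The difference was 6.23-fold without overlap (log2 2.64, SE 0.26, adjusted p = 2.35e-07), and part of its transcript is near-identical to Slfn3. Slfn5, a nuclear Schlafen protein, had the highest level of the 8, with 12.7, 8.22, 11.4 and 14.1 CPM in WT and 14.6, 25.1, 20.2 and 16.9 CPM in G93A mice. The lowest G93A mouse was only just above the highest WT mouse, and the difference was 1.7-fold (log2 0.76, SE 0.16, adjusted p = 0.00116). Slfn8 rose 5.96-fold, Ifi44 4.72-fold, Ifi35 2.48-fold, Samd9l 2.44-fold, Sp100, a protein of nuclear bodies, 1.99-fold and Xaf1, a promoter of apoptosis, 1.74-fold.

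**Figure D3:**
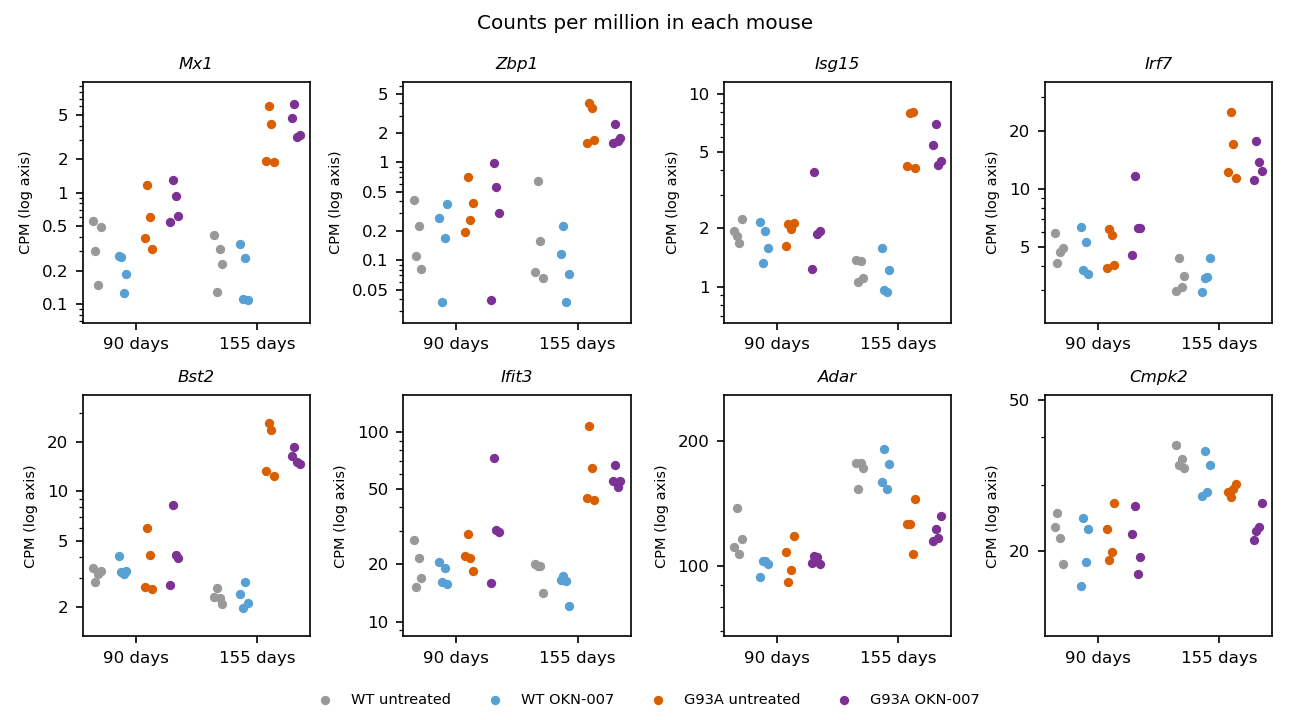
Each panel plots the CPM of 1 member on a log axis against age, and each point is 1 mouse, coloured by group. Mx1, Zbp1, Isg15, Irf7, Bst2 and Ifit3 are higher in all 8 G93A mice at 155 days than in all 8 WT mice of that age, while Adar and Cmpk2 are lower in G93A mice than in WT mice of the same treatment at that age.

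Levels between genes were compared per kilobase of exon, in untreated mice at 155 days. In WT mice Adar led, followed by Ly6e at 11.7 ± 1.5 and Ifit3 at 10.5 ± 1.6 CPM per kilobase (SD, n = 4). In G93A mice the order changed, with Ifit3 at 37.5 ± 17.3 ahead of Bst2 at 20.8 ± 7.65 and Ifit3b at 18.5 ± 7.52 CPM per kilobase. The SDs are between mice, whereas the genes were read in the same mice, so the SDs do not compare genes. The order of the genes was not tested. Bst2 was at rank 12 in WT mice at 2.55 ± 0.234 CPM per kilobase. Mx1, Zbp1 and Oas3 were among the lowest members in both genotypes, Mx1 at 0.0717 ± 0.0326 in WT and 0.921 ± 0.525 CPM per kilobase in G93A mice. The member with the largest fold change was therefore one of the least abundant.

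The fold changes were also set beside the promoter letters. The 16 members that hold the repeat had a median log2 fold change of 1.8, from 0.55 for Stat2 to 3.06 for Bst2. The 18 members with a window but no match had a median of 1.13, from -0.38 for Adar to 2.64 for Slfn2. The 11 without a window had a median of 1.91. These medians are given as a description, and the members overlap widely. Irf7, Oasl2 and Ifi44 rose by 2.28, 1.89 and 2.24 on the log2 scale without a match in this window.

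Single mice of a group moved together across the members. Of the 4 untreated G93A mice at 155 days, mouse 10 had the highest level for 37 of 45 members, and mice 9 and 12 had the lowest for 21 and 22. The summed CPM of 11 microglial markers was 1910, 2750, 3060 and 1640 in mice 9, 10, 11 and 12. In the same order the astrocyte markers summed to 12700, 16500, 16400 and 12900 CPM. Mouse 11 was highest for the microglial and mouse 10 for the astrocyte markers, and mice 9 and 12 were lowest for both. Whether the members followed these sums was not tested. The caudal Hox score, the mean log2(CPM + 1) of the caudal Hox genes, was 1.13, 1.14, 2.5 and 2.49 in mice 9, 10, 11 and 12. Mouse 10 shared its low score with mouse 9, whereas mouse 12, as low as mouse 9 for the members, had a score close to that of mouse 11. Among treated G93A mice at 155 days, mouse 14 had the highest level for 30 members. In WT mice of that age no mouse was highest for more than 18 members, but at 90 days treated WT mouse 5 was highest for 30.

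**Figure D4:**
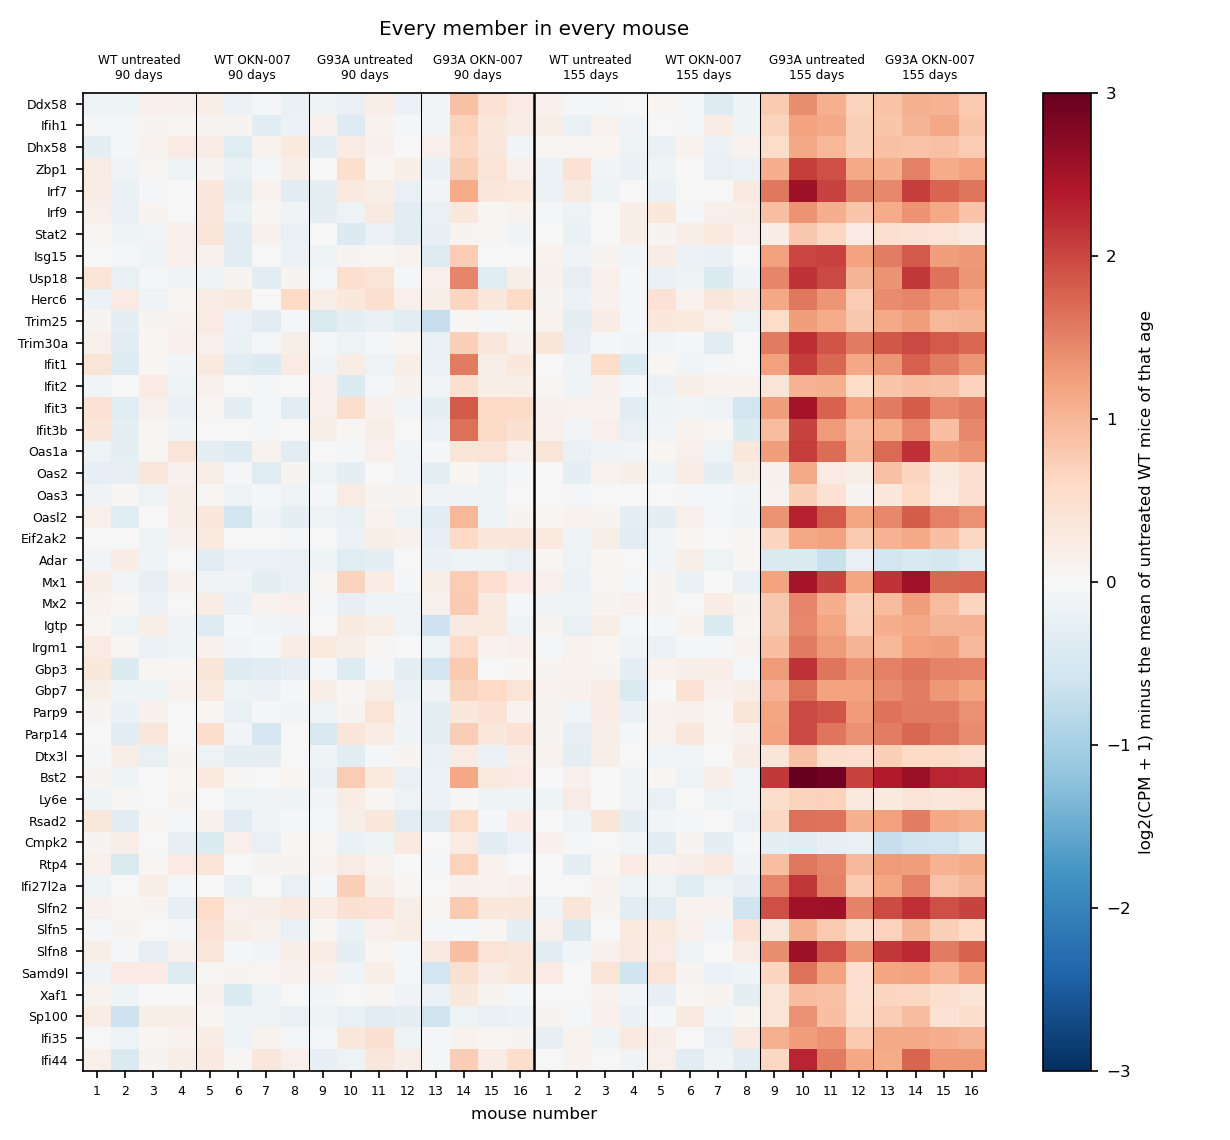
Rows are the 45 members by role, columns the 32 mice by group, and colour the log2(CPM + 1) minus the mean of untreated WT mice of the same age. The G93A mice at 155 days are red for nearly all rows and deepest in mouse 10, and at 90 days the column of treated G93A mouse 14 stands out. The rows of Adar and Cmpk2 are blue in G93A mice at 155 days.

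In mice given OKN-007 the genotypes were compared at the same age. These are other mice than the untreated ones, so the 2 comparisons share no sample. At 155 days 43 of 45 members were higher and 2 lower in treated G93A than in treated WT mice (edgeR, adjusted p), where 23.3% of all genes tested were higher and 18.2% lower, and the median log2 fold change was 1.43, against 0.0181 for all genes. The 42 members that rose in untreated mice also rose in treated mice, Oas2 was added, and Adar and Cmpk2 were again the 2 that were lower. All 4 G93A mice stood above all 4 WT mice for 42 members, against 20.2% of all genes tested. Mx1 differed most, from 0.346, 0.111, 0.262 and 0.108 CPM in WT to 4.65, 6.25, 3.19 and 3.27 CPM in G93A mice, 21.8-fold (log2 4.44, SE 0.46, adjusted p = 2.69e-07). Zbp1 followed at 16.9-fold and Ifi27l2a at 15.1-fold, both from few reads in the WT mice.

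The members at the edge in treated mice were Oas2, Stat2, Adar and Cmpk2. Oas2 measured 0.308, 0.666, 0.187 and 0.647 CPM in WT and 1.62, 1.22, 0.756 and 0.996 CPM in G93A mice, and was called (log2 1.41, SE 0.46, adjusted p = 0.0203), a call lost in 4 of 14 alternatives. Stat2 measured 23, 25.2, 26.6 and 24.3 CPM in WT and 30.8, 29.6, 29 and 26.1 CPM in G93A mice. A single G93A mouse fell within the WT range, and the call (log2 0.3, SE 0.11, adjusted p = 0.0418) was lost in 11 of 15 alternatives. Adar measured 159, 191, 153 and 176 CPM in WT and 115, 123, 117 and 132 CPM in G93A mice, without overlap (log2 -0.41, SE 0.088, adjusted p = 0.0011). Cmpk2 measured 28, 36.8, 28.7 and 33.8 CPM in WT and 21.4, 22.6, 23.2 and 26.8 CPM in G93A mice, again without overlap (log2 -0.36, SE 0.088, adjusted p = 0.00264). With both treatments averaged, 43 members were higher and 2 lower, where 28.8% of all genes were higher and 25.8% lower.

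OKN-007 itself was tested within each genotype. In G93A mice at 155 days no member was called by edgeR, DESeq2 gave none either, and 0% of all 18675 genes tested passed. The members' log2 differences ran from -0.56 (Ifi27l2a) to 0.34 (Mx1) with a median of -0.06 and a median SE of 0.16, and 2 members had an unadjusted p under 0.05, as did 4.04% of all genes. The smaller of these was for Cmpk2, at 28.7, 27.9, 29.2 and 30.1 CPM in untreated and 21.4 to 26.8 CPM in treated mice. Its log2 difference was -0.3 (SE 0.088, unadjusted p = 0.00331 in edgeR's fit across all genes, adjusted p = 1). In 43 of 45 members the difference was under 0.5 on the log2 scale. The largest SE was 0.47. A difference of several SEs can miss a call after adjustment over all genes, as that of Cmpk2 did. Modest effects of OKN-007 could therefore be missed in any member, and larger ones in members with a large SE.

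In WT mice given OKN-007 no member was called at 155 days or at 90 days, by edgeR or DESeq2, and 0% of all genes tested passed in edgeR at either age. At 155 days the smallest unadjusted p was for Ifi27l2a (0.342, 0.341, 0.428 and 0.196 CPM untreated against 0.192, 0.037, 0.187 and 0.108 CPM treated, log2 -1.3, SE 0.57, unadjusted p = 0.035, adjusted p = 1, edgeR), and it was the only member with an unadjusted p under 0.05 (2.94% of all genes). These levels rest on very few reads. At 90 days it was for Adar (111, 138, 107 and 116 CPM untreated against 94.4, 103, 103 and 101 CPM treated, log2 -0.22, SE 0.077, unadjusted p = 0.00961, adjusted p = 0.993), also the only one (4.07% of all genes). Whether OKN-007 acted differently in G93A and WT mice was tested as an interaction. No member was called at either age, by edgeR or DESeq2, 0% of all genes tested passed in edgeR, and 0 members at 155 days and 1 at 90 days had an unadjusted p under 0.05, against 2.34% and 2.81% of all genes. The members with the smallest unadjusted p were Stat2 at 155 days (log2 -0.25, SE 0.16, unadjusted p = 0.134) and Ddx58 at 90 days (log2 0.59, SE 0.26, unadjusted p = 0.0393), both with an adjusted p of 1. Ddx58 measured 5.44, 5.18, 7.19 and 5.37 CPM in untreated and 5.82, 12.1, 8.68 and 7.52 CPM in treated G93A mice of 90 days, which overlapped, against 5.48, 5.57, 6.99 and 6.78 CPM in untreated and 7.24, 5.35, 6.04 and 5.26 CPM in treated WT mice.

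At 90 days untreated G93A and WT mice were compared to ask whether the difference is already present. Oas3 had too few reads, and of the 44 members tested none was called by edgeR or by DESeq2, with 0% of 18899 genes called in edgeR. The median log2 fold change of the members was 0.05 against 4e-04 for all genes, 41 of the 44 were under 0.5 in size, and 2 members had an unadjusted p under 0.05, as did 5.96% of all genes. Slfn2 had the smallest. It measured 2.5, 2.34, 2.4 and 1.72 CPM in WT and 2.76, 3.41, 3.36 and 2.65 CPM in G93A mice (log2 0.46, SE 0.21, unadjusted p = 0.0365 in edgeR's fit, adjusted p = 0.822). It was also the only member whose 4 G93A mice stood above all WT mice, as did 0.963% of all genes tested. Mx1, 12.9-fold higher at 155 days, measured 0.559, 0.297, 0.15 and 0.49 CPM in WT and 0.389, 1.17, 0.602 and 0.31 CPM in G93A mice at 90 days, with overlap. Microglial markers at that age summed to 451 ± 26.4 CPM in WT and 567 ± 131 CPM in G93A mice (SD, n = 4), and none was called.

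Treated G93A and WT mice at 90 days differed more, but no member was called either by edgeR or by DESeq2, and 0% of all genes passed in edgeR. The median log2 fold change was 0.27, 38 of the 44 members were positive, and 11 had an unadjusted p under 0.05 (3.95% of all genes did), all but Slfn5 higher in G93A. Mx1 had the smallest, with 0.271, 0.264, 0.126 and 0.186 CPM in WT and 0.543, 1.3, 0.94 and 0.613 CPM in G93A mice (log2 1.97, SE 0.51, unadjusted p = 0.00103 in edgeR's fit, adjusted p = 1). All 4 G93A mice were above all 4 WT mice, which held for no other member and for 1.81% of all genes tested. Ifit3 was next, at 20.7, 16.2, 19.1 and 15.7 CPM in WT and 15.9, 72.9, 30.5 and 29.7 CPM in G93A mice (log2 1.05, SE 0.31, unadjusted p = 0.00337). Its groups overlapped, with mouse 13 within the WT range and mouse 14 far above all others. With both treatments averaged no member was called by edgeR or DESeq2, where 0.0265% of all genes passed, 6 members had an unadjusted p under 0.05 against 6.61% of all genes, and Mx1 was again first (log2 1.35, SE 0.35, adjusted p = 0.262 in edgeR).

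A single mouse carried much of that difference. Of the 4 treated G93A mice at 90 days, mouse 14 had the highest level for 39 of 45 members and mouse 13 the lowest for 38, and their mean log2(CPM + 1) was 3.25 and 2.49 with the other mice at 2.82 and 2.8. Without mouse 14 the median log2 fold change against treated WT mice was 0.074 and 4 members had an unadjusted p under 0.05. Without mouse 13 these were 0.41 and 19, and without treated WT mouse 6 or 7 they were 0.18 and 6 or 0.25 and 7. The microglial markers summed to 530, 518, 628 and 619 CPM in mice 13 to 16, so mouse 14 had the lowest sum there. Its caudal Hox score of 1.3 was close to that of mouse 13, 1.36, whereas the other mice were at 2.91 and 2.68. Against untreated G93A mice of the same age, 36 of 44 members were positive with a median log2 difference of 0.2, 7 had an unadjusted p under 0.05 (5.56% of all genes did), and none was called by edgeR or DESeq2, with 0% of all genes called in edgeR. Slfn8 had the smallest unadjusted p there, at 1.9, 1.03, 1.59 and 1.38 CPM untreated and 2.02, 3.68, 2.29 and 2.18 CPM treated (log2 0.76, SE 0.25, unadjusted p = 0.00684, adjusted p = 0.837). Without mouse 14 the median over the members was 0.048 with 1 member at an unadjusted p under 0.05, and without mouse 13 it was 0.36 with 15.

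**Figure D5:**
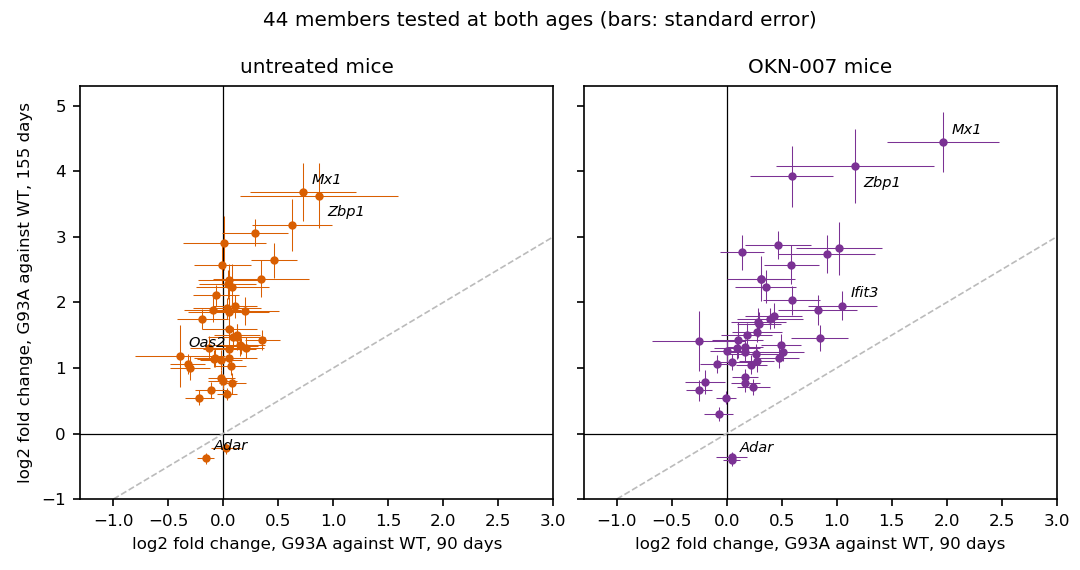
Each point is 1 of the 44 members tested at both ages, with its log2 fold change of G93A against WT mice at 90 days on the horizontal axis and at 155 days on the vertical axis, bars showing standard errors, and the dashed line marking equal values. Untreated mice are on the left and mice given OKN-007 on the right. All members but Adar and Cmpk2 lie above the dashed line, and Mx1 reaches 1.97 at 90 days in treated mice.

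The change in the genotype difference between the ages was tested directly in a fit of all 32 mice. In untreated mice the difference was larger at 155 days for 41 of 45 members and smaller for none (edgeR, adjusted p), where 12.9% of 19829 genes had a larger and 8.34% a smaller value, and the median of the members was 1.37 on the log2 scale. The members not called were Oas2, Oas3, Adar and Cmpk2. Mx1 gained most, 2.96 (SE 0.68, adjusted p = 0.0019). In treated mice 36 members were called larger and Adar smaller, where 13% of all genes were larger and 9.97% smaller. Among the 8 not called were Ifit1, Ifit3 and Ifit3b, which measured 10.5, 72.9 and 46.6 CPM in treated G93A mouse 14 at 90 days and at most 3.88, 30.5 and 21.5 CPM in the other mice of its group. Why these 8 were not called was not tested, and values of the rest of them are not given here. The ages cannot be told apart from any handling that differed between them, since no source says whether they were sequenced together.

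Within untreated G93A mice 41 members rose from 90 to 155 days and none fell, where 21% of all genes rose and 12.8% fell, with a median of 1.29. Within untreated WT mice 5 members changed, where 15.3% of all genes rose and 9.61% fell. Adar (from 111, 138, 107 and 116 to 177, 153, 177 and 172 CPM, log2 0.54, adjusted p = 0.000193 in edgeR) and Cmpk2 (from 23.2, 25.3, 21.7 and 18.5 to 38.1, 33.8, 35.1 and 33.2 CPM, log2 0.67, adjusted p = 0.000555) rose, without overlap of the ages. Irf9, Stat2 and Mx2 fell. In WT mice with both treatments averaged, 5 members rose and 10 fell, where 24% of all genes rose and 20.2% fell. The share of members that fell was thus near that of all genes, and the share that rose was below it. The members that fell included Ifi27l2a (log2 -1.25, SE 0.33, adjusted p = 0.00258 in edgeR), Mx2 (log2 -0.84, SE 0.13, adjusted p = 4.6e-06), Isg15 (-0.61) and Bst2 (-0.52). Of 11 microglial markers 7 fell in the same comparison, and whether the members followed them was not tested. Adar and Cmpk2 also rose with age in untreated G93A mice, by 0.3 and 0.4 on the log2 scale (0.54 and 0.67 in untreated WT mice), and the test of the difference between the genotypes in this change called neither.

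The rest of the interferon pathway was followed from the ligands to other induced genes, untreated mice at 155 days unless stated. The ligands Ifng, Ifna2, Ifnk and Ifne were at 0 to 4 reads in every mouse, with group means summing to at most 0.161 CPM, so no difference could be seen at this depth. Ifnb1, Ifna1, Ifna4, Ifna5, Ifnl2 and Ifnl3 were not found by gene ID in the read count table, so their levels are unknown here. In that comparison 21.3% of all genes tested were higher and 18.2% lower. Of 6 receptor chains 5 were higher in G93A. Il10rb, shared by the interleukin-10 and interferon lambda receptors, was highest (log2 1.51, adjusted p = 1.38e-06), followed by Ifngr1 (1.43), Ifnar2 (0.98) and Ifnar1 (0.44). Ifnlr1, the specific interferon lambda chain, was not called (-0.48, adjusted p = 0.118).

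Of 11 genes of JAK-STAT and IRF signalling, 8 were higher, Jak1 was lower (log2 -0.34, adjusted p = 0.00374) and Jak2 and Socs1 were not called. For these lists too the shares of all genes tested were 21.3% higher and 18.2% lower. The largest differences were in Socs3, a feedback inhibitor mainly of gp130 signalling (3.96), Irf8, a lineage factor of microglia (3.26), Ptpn6, a phosphatase of immune cells (3.04), and Irf5 (2.53). Of 11 genes of nucleic acid sensing upstream of interferon, 10 were higher, led by Tlr7 (3.35), Tlr9 (2.14), Tmem173 (STING, 1.7) and Ikbke (1.5), and the kinase Tbk1 was slightly lower (-0.19, adjusted p = 0.0451). Of 18 other induced genes 15 were higher and none lower. Cxcl10, a chemokine for T cells, differed most of these (5.11, SE 0.5, adjusted p = 1.91e-07), followed by Ccl5 (3.61), Gbp2 (2.62) and Cxcl9 (2.46). With OKN-007 the same lists gave 5 of 6, 9 of 11, 10 of 11 and 16 of 18 higher in G93A than in WT mice. Among all genes tested there 23.3% were higher, and genes of the lists called lower are not counted here. At 90 days no gene of these lists was called in either treatment, and Cxcl10 had the smallest unadjusted p of them in the average over treatments (log2 1.73, SE 0.35, unadjusted p = 0.000112, adjusted p = 0.109).

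Markers of cell types moved with the members at 155 days. The 11 microglial markers summed to 408 ± 37.9 CPM in untreated WT and 2340 ± 672 CPM in untreated G93A mice (SD, n = 4), and to 357 ± 21.4 and 2290 ± 226 CPM in treated mice. Their median log2 fold change in untreated mice was 2.43, against 1.47 for the members and 2e-04 for all genes tested. The 6 astrocyte markers summed to 4520 ± 210 CPM in WT and 14600 ± 2120 CPM in G93A mice, and the 6 neuronal markers to 6560 ± 700 and 3360 ± 613 CPM. None of the 5 oligodendrocyte, 5 endothelial or 5 erythroid markers was called in untreated mice, and 2 of 4 meningeal fibroblast markers were higher. Markers of T and NK cells were near 0, at 0.36 to 0.816 CPM summed over 8 genes in WT and 1.5 to 2.03 CPM in G93A mice, and Cd3g and Cd8a, the only ones with enough reads, were higher. Of the monocyte and neutrophil markers 2 had enough reads and neither was called. The part of these cells in the members' differences was not tested.

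The caudal Hox score, as a stand-in for the position of the piece of cord, was entered as a covariate. At 155 days it lay between 2.66 and 3.54 in the 4 untreated WT and between 1.13 and 2.5 in the 4 untreated G93A mice. Whether the score differed through position or through the disease cannot be told apart here. With the covariate 41 of 45 members were called in untreated mice, 40 higher and 1 lower, where 24.5% of all genes were called. The median log2 fold change was 1.35 (0.003 over all genes). In treated mice 42 were called, 40 higher and 2 lower, where 28% of all genes were called, with a median of 1.33 (0.022 over all genes). The calls lost were those of Oas3, Cmpk2 and Samd9l in untreated mice and of Stat2, Oas2 and Sp100 in treated mice, and the log2 fold change of Ifi27l2a in untreated mice was 2.59 in place of 3.18. Without the score the medians were 1.47 and 1.43.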

How the data were processed

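RNA was extracted by the authors from a piece of spinal cord of each of 32 mice, and mRNA libraries were made with a stranded kit and sequenced. The deposited table holds raw read counts per gene and mouse, and no column lacked a sample. The sources conflict on how the counts were made: the methods name Trimmomatic, STAR, HTSeq, GRCm38 and GENCODE M10, the submitters' processing notes FastQC, STAR, featureCounts, edgeR, hg38, GRCm39 and mm39, and 1306 gene IDs lie above the highest of GENCODE M21, the annotation used here. Symbols were found for 41203 of 42524 IDs (96.9%). The strand setting is not given in the sources used here. The segment of cord is likewise not given. Caudal Hox genes differed with genotype at 155 days, and whether the position of the pieces differed was not tested.

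Groups came from the labels, 4 mice each, named by the labels' mouse numbers 1 to 16 at each age. Counts were tested with edgeR 4.0.16 (R 4.3.3, limma 3.58.1): TMM factors, genes with low counts removed by filterByExpr, the quasi-likelihood F test, and Benjamini-Hochberg adjustment over all genes tested. The 16 mice of an age were fitted as 4 groups, and contrasts across ages used all 32 mice as 8 groups. Standard errors were derived from the fitted fold change and its F statistic. The script was tested on simulated data. Mean levels used a pseudocount of 1. At depths of 19701722 to 30138257 counts, 3 counts are 0.152 CPM in the smallest library, and such limits cover counting error only. Promoter windows came from RefSeq (GRCm38.p6), and near copies from an alignment of transcripts at 95% identity.

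The members and the lists were chosen with earlier results of these data known. Values in every mouse are given, in each role group, for the called member with the largest change and the one with the highest level at 155 days in untreated mice, for members lower or not called there, and for the smallest unadjusted p where none was called. Irf7, Isg15, Bst2 and the Ifit1 and Ifit3b values at 90 days are given besides, chosen after their values were seen. Alternatives were relative log expression (RLE) size factors, DESeq2 1.42.0, no filter or at least 10 counts in every mouse, a log2 fold change of at least 1, all mice in 1 fit, the Hox score as covariate, a block on the sample number, and leaving out each mouse.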

Additional observations from a re-analysis of the deposited data

Results flagged for a closer look

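In groups of 4 mice, a single mouse far from the other 3 by Dixon's criterion was found in 13 of 368 groups, where chance gives about 18.4. Of these, 4 came from untreated WT mouse 4 at 155 days, the lowest of its group for Ifit3 (14.2 CPM), Gbp3 (11.9 CPM), Oasl2 (6.41 CPM) and Dhx58 (2.12 CPM). Untreated WT mouse 2 of that age was highest for Zbp1 (0.639 CPM), and untreated G93A mouse 10 for Oas2 (2.14 CPM). At 90 days untreated G93A mouse 11 was highest for Ddx58 (7.19 CPM) and Oasl2 (7.7 CPM), WT OKN-007 mouse 5 for Gbp3 (25.2 CPM) and G93A OKN-007 mouse 14 for Slfn8 (3.68 CPM). At the low end of that age stood untreated WT mouse 2 for Trim25 (9.36 CPM) and Sp100 (4.2 CPM), and G93A OKN-007 mouse 13 for Trim25 (6.71 CPM).

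The difference between G93A and WT mice was not the same at the 2 ages for 41 of 45 members in untreated mice and for 37 in mice given OKN-007, by edgeR's test of the difference itself (adjusted p under 0.05). It was larger at 155 days for all of these but Adar in treated mice.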

How the results depend on the processing

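No called result changed direction under any alternative run. At 155 days the count of members called stayed at 43 to 44 of 45 in untreated and 43 to 45 in treated mice when each mouse was left out. With no filter on low counts, 2 members were called between treated G93A and WT mice at 90 days (Ifit3 and Ifit3b) and 1 in the average over treatments (Ifit3), where none was called with the filter, and the cause was not tested. Requiring a log2 fold change of at least 1 left 0 members changed with age in untreated WT mice and 1 in the average over treatments, by construction. With a pseudocount of 0.1 the difference in mean level at 155 days was 1.476 in place of 1.17.

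Leaving out each mouse in turn moved the median log2 fold change from 0.074 to 0.414 between treated mice at 90 days, from 1.052 to 1.417 for the change in the genotype difference with age in treated mice (32 to 40 members called), and from 1.036 to 1.396 for age in untreated G93A mice (40 to 43). The extremes for treated mice were those without G93A mouse 13 or 14 of 90 days, and for age those without untreated G93A mouse 10 or 12 of 155 days. The count was 38 to 42 for the change in untreated mice, 5 to 7 for age in untreated WT mice and 11 to 17 in all WT mice.

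Mice that share a sample number at the 2 ages are different animals, and their deviations were correlated at -0.219 to 0.135, so the numbers do not pair them. With a replicate block on the number the counts were 41 and 40 for the change in untreated and treated mice, 7 and 41 for age in untreated WT and G93A mice, and 16 in all WT mice.

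Among single members, Oas2 in untreated mice at 155 days was called in 6 of 14 alternatives (adjusted p from 0.028 to 0.617, edgeR or DESeq2) and had a log2 fold change of 0.55 without G93A mouse 10. Depth limits Oas3, Zbp1 and the ligands, whose counts are near the floor, and the ages cannot be told apart from a batch of that age.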
